A study of Rattus norvegicus with 4 samples.

Results

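The Notch pathway was followed in cultured rat bone marrow cells through 10 genes chosen by name, the receptors Notch1, Notch2 and Notch3, the ligands Jag1, Jag2, Dll1 and Dll4, and the targets Hes1, Hey1 and Nrarp. The authors' table held 7 of the 10 under their own symbols, and a match of RefSeq accessions to the spot table added Dll1 and Nrarp, which left Jag2 with no matched probe. These 9 genes had 11 of the 30367 probes on the array. The cells came from marrow of Wistar rats aged 6 weeks, were grown for 15 days at high density (2 arrays) or at regular density (2 arrays), and are called endothelial progenitor cells by the submitters. The series' design text describes 2 separate experiments, each with its own high density cells, and regular density cells as the control. No genotype, added agent or seeding number is given in the sources used here. No source says that the 2 arrays of a group came from separate animals. Each p-value therefore reflects the spread among these 4 arrays alone, which may be technical or lie between the 2 experiments.

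Notch receptors are membrane proteins that are cut when a ligand of the Jagged or Delta family on a neighbouring cell pulls on them, so the pathway reads direct contact between cells. The freed intracellular part enters the nucleus, binds the DNA-binding protein RBPJ and turns on genes such as Hes1, Hey1 and Nrarp. In blood vessels Dll4 and Notch1 act in sprouting endothelium and Jag1 and Notch3 in the smooth muscle and pericyte wall, and in marrow the pathway also acts on blood cell fate.

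RBPJ recognises a short core, TGGGAA, which was looked for on both strands in RefSeq promoter windows of the GRCr8 assembly, from 250 bases before to 50 bases after each start. Windows were found for 8 of the 10 members, and 3 of these, Hes1, Notch3 and Dll1, held the core, as did 25.7% of all 33469 windows. The 250 bases before the start are shown for the members that passed the test described below, Hes1, Notch3 and Jag1. Capitals mark the RBPJ core.
Hes1, chr11:84213046-84213295, minus strand: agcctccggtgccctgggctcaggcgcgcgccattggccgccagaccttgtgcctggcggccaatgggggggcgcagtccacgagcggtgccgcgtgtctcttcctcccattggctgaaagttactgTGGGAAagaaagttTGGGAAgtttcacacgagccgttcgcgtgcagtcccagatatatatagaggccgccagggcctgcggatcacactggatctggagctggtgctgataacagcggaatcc
Notch3, chr7:11834586-11834835, minus strand: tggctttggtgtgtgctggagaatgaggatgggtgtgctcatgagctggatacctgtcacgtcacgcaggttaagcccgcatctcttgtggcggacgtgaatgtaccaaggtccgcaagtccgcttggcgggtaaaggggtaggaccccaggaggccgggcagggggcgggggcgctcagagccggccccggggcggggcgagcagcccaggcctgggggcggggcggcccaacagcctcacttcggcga
Jag1, chr3:144894884-144895133, minus strand: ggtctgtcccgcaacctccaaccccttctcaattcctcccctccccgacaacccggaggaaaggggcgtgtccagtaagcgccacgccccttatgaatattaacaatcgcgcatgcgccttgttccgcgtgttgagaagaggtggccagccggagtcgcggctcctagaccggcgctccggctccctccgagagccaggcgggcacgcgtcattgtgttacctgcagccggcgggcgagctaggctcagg
The Hes1 promoter held 2 cores on the coding strand, with first bases 123 and 109 bases before the start and 8 bases between them. At least 2 cores were found in 3.85% of all windows. In Hes1 the first core was also a match to the longer form GTGGGAA, which contains the core and was found in 6.29% of windows and, among the members, also in that of Dll1. Notch3 had its single core 43 bases after the start. The printed stretch that holds it lies on chr7:11834536-11834551, minus strand.
Notch3, stretch after the start: cggagcccTGGGAAag
Jag1, Notch1, Notch2, Nrarp and Jag2 had no match to the core in their windows. Dll1 had 2 matches, at 185 and 82 bases before the start on opposite strands. Hes and Hey proteins bind other short motifs, of which the E box CACGTG was found only in the window of Nrarp, 112 bases before the start, and in 6.42% of all windows. The N box CACNAG, also bound by Hes1, was found in 43.1% of all windows and among the members 4 times in the windows of Hes1 and of Notch1, 2 times in that of Nrarp and 1 time in that of Notch3. A match to letters is a description and shows no binding.

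The arrays were of Agilent's one-colour type, in which RNA copied with a Cy3 dye binds printed probes and the brightness of a spot is read. The 75th percentile of probe intensity ran from 355 to 462 over the 4 arrays, each array was scaled to the same 75th percentile, and intensities below are scaled intensities. Background was the 99th percentile of 153 negative control spots, a scaled intensity of 24.9 to 36.4. Before scaling, the negative controls had a median intensity of 13.4 and 10.5 on the arrays numbered 1 but 1.93 and 1.99 on those numbered 2. A feature, which is a named gene or an unnamed probe, was tested when its mean log2 intensity was above 5.62, and the test was limma's linear model across all 13676 such features with Benjamini-Hochberg adjustment. At an adjusted p under 0.05, 30.9% of features were called, with 1779 higher at high density and 2452 lower. That split was 1202 against 3246 under median scaling and 1393 against 578 without scaling, and the median change of all features, -0.08, moved to -0.20 and 0.03 under these settings.

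The labelled cell type was compared with its defining markers. Of 11 endothelial markers, 5 to 7 lay above background on each array, and Tek, Cd34 and Emcn lay above it on 0 of the 4 arrays. Their summed scaled intensity was 778 and 685 at regular density and 1143 and 925 at high density. Of 9 smooth muscle and pericyte markers, 7 or 8 lay above background on each array and 6 of the 8 tested rose, among them Cnn1, which was above background on neither array of the regular density group and was tested only through its high density values. Their sums were 27409 and 28008 at regular density and 123681 and 123434 at high density. For 8 macrophage markers the sums were 29100 and 27546 at regular density and 34647 and 29850 at high density, and of 7 tested C1qa and Adgre1 rose and Cd14 fell. The 6 stromal fibroblast markers were all above background, with sums of 94056 and 74785 against 112956 and 96221, most of it from Col1a1, which did not pass the test. Of these 6, Cxcl12, Thy1 and Lum rose and Dcn fell. Of 5 endothelial markers tested, Flt1 and Egfl7 rose and 0 fell. Of the lymphocyte markers Cd8a lay above background on all 4 arrays and rose, and Cd3e lay above it on 0. Each of these 5 marker classes had higher sums on both high density arrays than on both regular density arrays. That was the direction of the Notch members that rose. A sum is weighted toward its brightest genes and does not show that a class rose as a whole. Among macrophage markers C1qa had a log2 change of 2.77, while Cd68 (0.11), Ptprc, Csf1r and Itgam did not pass the test. Cd8a was the only lymphocyte marker above background. The part of these classes in the results of the Notch members was not tested. In bulk RNA, fewer cells of a type and less RNA per cell cannot be told apart.

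Of the 7 members bright enough to test, the ligand gene Jag1, the target gene Hes1 and the receptor gene Notch3 rose at high density and 0 fell. That is 42.9% of the tested members, where 13.0% of all tested features were called higher and 17.9% lower. Jag1 was 3.08-fold higher, Hes1 1.80-fold and Notch3 1.61-fold (n = 2 arrays per group). The test was not passed by Notch1, Notch2, Dll4 or Hey1, whose log2 changes lay between 0.05 and 0.60. Dll1 and Nrarp lay under background on all 4 arrays and were not tested. Apart from Notch2, the tested members were higher on both high density arrays than on both regular density arrays, 6 of 7, where 28.0% of all tested features were higher and 41.7% lower without overlap. Of these 6, Dll4 was tested only through its high density values, and the groups of Hey1 were only 0.0062 apart on the log2 scale.

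**Figure D1:**
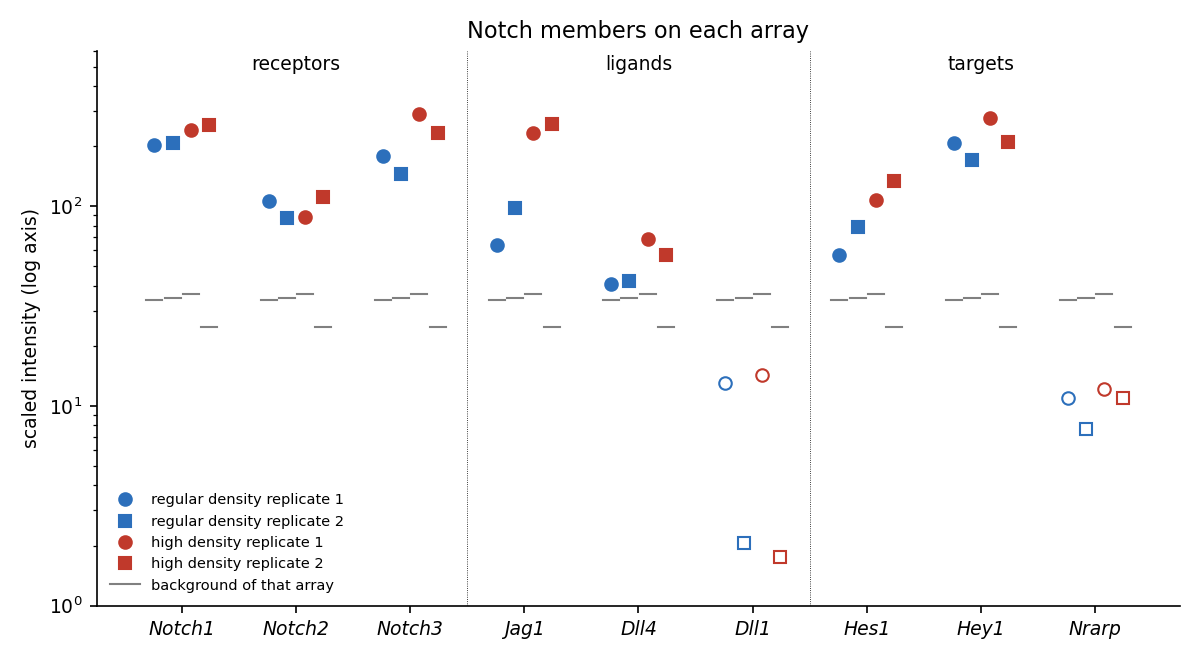
Scaled intensity (log axis) of the 9 Notch members with a probe on each of the 4 arrays, grouped as receptors, ligands and targets. Each point is 1 array, open symbols lie under that array's background (grey bars), and the 2 groups stand farthest apart for Jag1.

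Among the receptors, Notch3, whose product is made chiefly by vascular smooth muscle cells and pericytes, was the one that passed the test. Its scaled intensity was 179 and 144 on the regular density arrays and 291 and 231 on the high density arrays. Both high density arrays stood above both regular density arrays, and in each group the array numbered 1 was the brighter. The log2 change was 0.69 (SE 0.17, adjusted p = 0.0248 with limma), a fold of 1.61 with a 95% interval of 1.22 to 2.13. It was 0.70 between the arrays numbered 1 and 0.68 between those numbered 2. The call ended without high density replicate 1 (0.52), without regular density replicate 2 (0.53) and under median scaling (0.56, adjusted p = 0.0557). Over all alternatives its adjusted p lay between 0.000232 and 0.101. The probe of Notch3 (Entrez gene 56761) lies on chromosome 7 from 12688358 to 12688417 by the coordinates the authors deposited, for which no assembly is named, as for the other probes.

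Notch1, the receptor of endothelium and of T cell fate, read 203 and 208 at regular density and 241 and 255 at high density. The groups did not overlap, but the distance between them was small. The log2 change of 0.27 (SE 0.11) did not pass the test (adjusted p = 0.112 with limma), with a 95% interval of the fold from 1.00 to 1.45. It was 0.24 between the arrays numbered 1 and 0.29 between those numbered 2. A fit with the replicate number as a block, given below, called Notch1 higher. A further Notch1 probe lay under background on all 4 arrays, with scaled intensities of 14.8 and 2.56 at regular density and 16.9 and 3.82 at high density, and was not used. Notch2, a receptor also found in smooth muscle and B cells, read 106 and 87.0 at regular density and 88.5 and 112 at high density. Its groups overlapped. The log2 change was 0.05 (SE 0.20, adjusted p = 0.859 with limma), with a 95% interval of the fold from 0.748 to 1.44 and a direction that turned under quantile and median scaling. The differences between the changes of the 3 receptors were not tested. The probe of Notch1 lies on chromosome 3 from 4631829 to 4631888 and that of Notch2 on chromosome 2 from 192986490 to 192986549.

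Jag1, the ligand by which endothelial, smooth muscle and marrow stromal cells signal to Notch receptors on neighbours, had the largest change of the tested members. It read 64.2 and 98.1 on the regular density arrays and 234 and 256 on the high density arrays. That was 1.89 and 2.83 times background at regular density and 6.41 and 10.3 times at high density. The high density arrays lay close together, 0.14 apart on the log2 scale, whereas the regular density arrays were 0.61 apart, where the median feature had 0.17. Even the brighter regular density array stayed 1.25 log2 units below the dimmer high density array. The log2 change was 1.62 (SE 0.22, adjusted p = 0.00362 with limma), a fold of 3.08 with a 95% interval of 2.15 to 4.43. In size it exceeded the change of 97.6% of the tested features. It was 1.86 between the arrays numbered 1 and 1.39 between those numbered 2, and 1.32 to 1.93 with each array left out. The Jag1 probe (Entrez gene 29146) lies on chromosome 3 from 125181316 to 125181375.

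Dll4, the Delta ligand of arterial endothelium and sprouting tip cells, read 40.6 and 42.0 at regular density and 68.7 and 56.9 at high density. Both high density arrays were above both regular density arrays. These values were only 1.20 and 1.21 times background at regular density and 1.89 and 2.29 times at high density. The log2 change of 0.60 (SE 0.23) did not pass the test (adjusted p = 0.0995 with limma), and the fold had a 95% interval of 1.02 to 2.24. It was called with moderation that ignores the trend with intensity (adjusted p = 0.0310), while the other alternatives gave adjusted p from 0.0508 to 0.362. The mean of its regular density arrays, 5.37, lay under the limit of 5.62 for testing, so Dll4 was tested only through its high density values. Its other probe read 13.3 and 1.95 at regular density and 16.3 and 1.75 at high density, all under background. Dll1, a Delta ligand that acts in lymphocyte development, read 13.0 and 2.05 at regular density and 14.2 and 1.75 at high density. These values were higher on the arrays numbered 1, as were the negative controls, and no fold is given. The probe of Dll4 lies on chromosome 3 from 105850302 to 105850361.

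Among the targets, Hes1, a repressor that is switched on by cut Notch and holds back differentiation, rose. It read 57.0 and 78.2 at regular density and 108 and 134 at high density. These values were only 1.68 and 2.26 times background at regular density and 2.96 and 5.38 times at high density. All high density values were above all regular density values, and in each group the array numbered 2 was the brighter, the opposite of the order in Notch3. The log2 change was 0.85 (SE 0.22, adjusted p = 0.0313 with limma), a fold of 1.80 with a 95% interval of 1.24 to 2.60. It was 0.92 between the arrays numbered 1 and 0.77 between those numbered 2. The call ended without high density replicate 2 (0.69) and without regular density replicate 1 (0.62). It also ended when the median of the negative controls was subtracted (0.93, adjusted p = 0.0663). Over all alternatives its adjusted p lay between 0.00105 and 0.0947. The Hes1 probe (Entrez gene 29577) lies on chromosome 11 from 72603477 to 72603538, and its promoter is the one with the pair of RBPJ cores shown above.

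Hey1, a repressor of the same protein class that acts in arteries and in smooth muscle, read 207.6 and 171 at regular density and 277 and 208.5 at high density. The groups touched: the dimmer high density array exceeded the brighter regular density array by 0.0062 on the log2 scale. The log2 change of 0.35 (SE 0.18) did not pass the test (adjusted p = 0.175 with limma), with a 95% interval of the fold from 0.951 to 1.72. It was 0.42 between the arrays numbered 1 and 0.29 between those numbered 2. Hey1 too was called higher in the fit with the replicate number as a block. Without high density replicate 2 the change was 0.56 and was called (adjusted p = 0.0468, with 0.0122 to 0.711 over the alternatives), and without high density replicate 1 it was 0.15. Nrarp, a small ankyrin repeat protein made in response to Notch that limits it in turn, read 10.9 and 7.63 at regular density and 12.1 and 11.0 at high density. All of these lay at 0.220 to 0.441 times background, so the arrays give no fold for it. The Hey1 probe lies on chromosome 2 from 95175974 to 95176033.

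**Figure D2:**
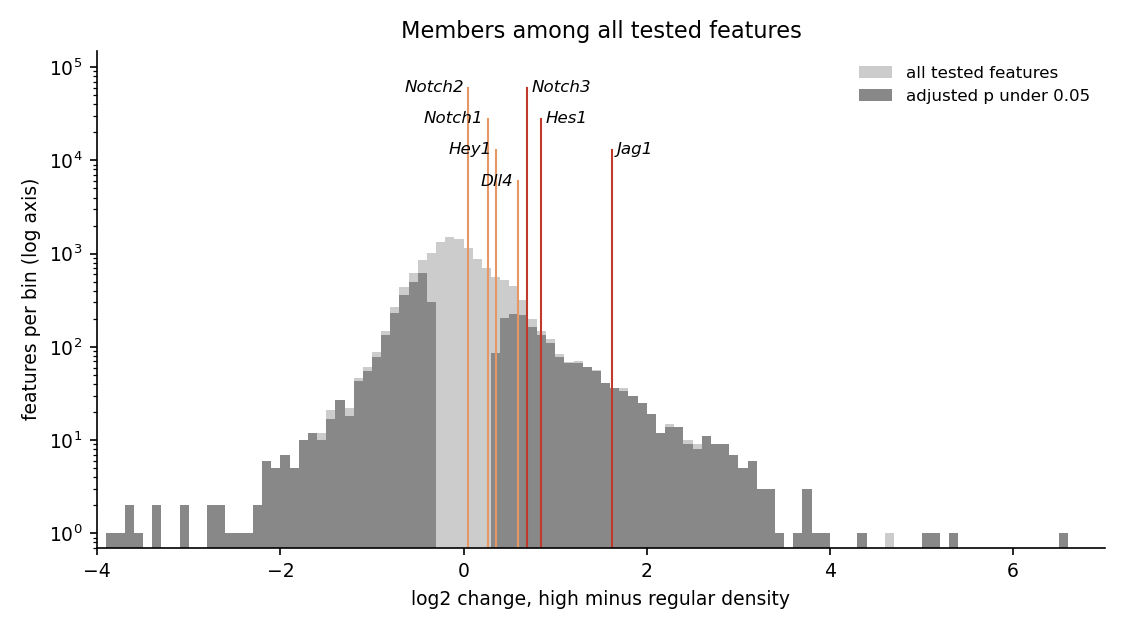
Histogram of the log2 change of all 13676 tested features (light grey) and of those with an adjusted p under 0.05 (dark grey), with a log axis of counts per bin. Vertical lines mark the 7 tested members, red where the adjusted p was under 0.05, and Jag1 stands farthest to the right at 1.62.

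The remaining pathway was described through 60 genes sorted by role, of which 56 had a probe and 41 were tested. Of these 41, 7 rose (17.1%) and 4 fell (9.76%), beside 13.0% and 17.9% of all tested features. Their median log2 change was -0.03, against -0.08 over all features. One of the 7, Dlk2, was tested only through its high density values. The 7 also include Acta2 and Myh11, which are on the smooth muscle marker list too. Like the members, these genes were listed with earlier results of these data known, so the shares are a description only.

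**Figure D3:**
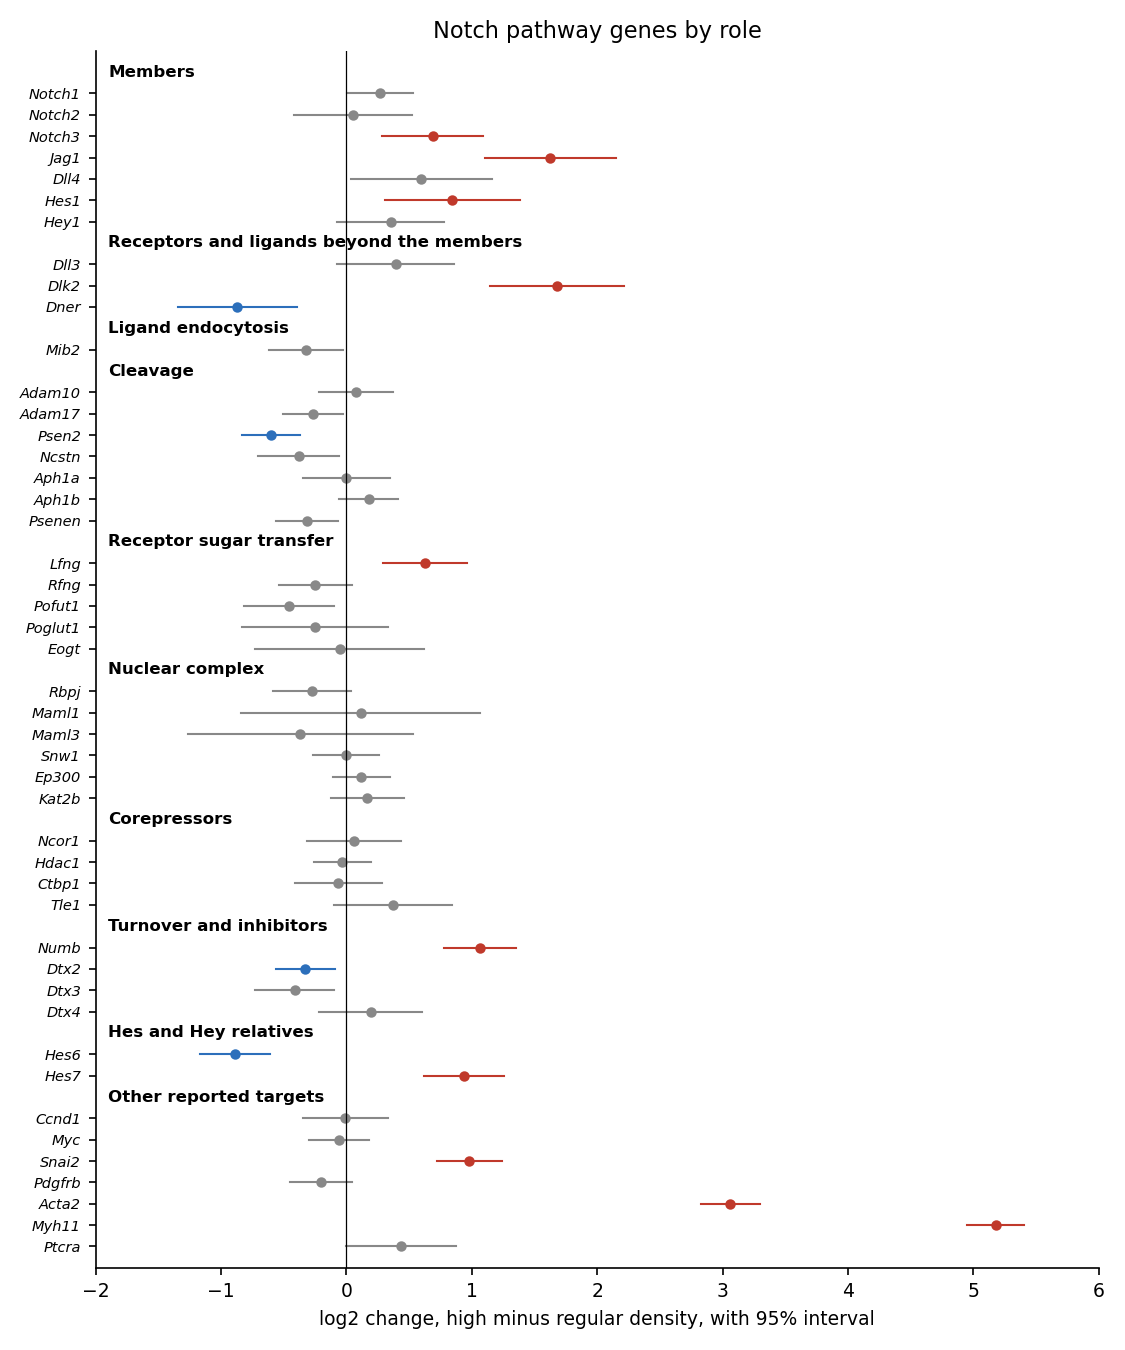
Log2 change (high minus regular density) with its 95% interval for the 7 tested members and the other pathway genes reported here, sorted by role. Red marks genes that rose and blue genes that fell at an adjusted p under 0.05, and the nuclear complex genes and corepressors drawn are all grey.

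The remaining receptors and ligands gave 1 rise and 1 fall among 3 tested genes. Dlk2, a membrane protein with EGF repeats that is related to Delta ligands and has been reported to inhibit Notch, had log2 intensities of 4.89 and 5.14 at regular density and 6.77 and 6.62 at high density. It was above background on both high density arrays and on 1 of 2 regular density arrays. The fitted log2 change was 1.68 (SE 0.22, adjusted p = 0.00341 with limma), but its regular density mean, 5.02, lay under the limit of 5.62 for testing and close to background, so the size of the change is poorly fixed. Dner, a transmembrane protein with EGF repeats best known from neurons, had log2 intensities of 8.10 and 7.997 at regular density and 6.89 and 7.47 at high density. Both high density values were the lower ones. The log2 change was -0.87 (SE 0.20, adjusted p = 0.0204 with limma), and the call ended without regular density replicate 1 (-0.82). Leaving out an array of the high density group gave -0.58 for replicate 1 and -1.16 for replicate 2. Dll3, a Delta protein that inhibits Notch within its own cell, did not pass (0.40, adjusted p = 0.167). Notch4 and Dlk1 lay under background on all 4 arrays.

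Of 8 genes for receptor cleavage, 1 fell and 0 rose. Psen2, a catalytic subunit of the gamma-secretase that frees the intracellular part of Notch, had log2 intensities of 9.31 and 9.26 at regular density and 8.70 and 8.66 at high density. Its log2 change was -0.60 (SE 0.10, adjusted p = 0.00637 with limma), and that call ended without scaling (-0.50). The other 7 cleavage genes, among them the sheddases Adam10 and Adam17 and the gamma-secretase subunit Ncstn, had log2 changes from -0.38 to 0.18. Of the ligand ubiquitin ligases that drive endocytosis, 1 of 4 was tested, Mib2, with a log2 change of -0.32 (adjusted p = 0.0930).

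Of 5 tested genes for sugar transfer to Notch, Lfng rose. Lunatic fringe, its product, lengthens sugars on the receptor and changes which ligands it answers. Lfng had log2 intensities of 6.56 and 6.61 at regular density and 7.19 and 7.23 at high density, so the arrays of each group lay close together. Its log2 change was 0.62 (SE 0.14, adjusted p = 0.0188 with limma). The call ended when either high density array was left out (0.64 and 0.61), when regular density replicate 1 was left out (0.60), and without scaling (0.73). Rfng, Pofut1, Poglut1 and Eogt had log2 changes from -0.46 to -0.05 and did not pass, and Mfng lay under background on all arrays.

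The proteins that meet cut Notch in the nucleus gave 0 calls. RBPJ itself, Rbpj, had log2 intensities of 10.26 and 10.02 at regular density and 9.98 and 9.75 at high density, a change of -0.27 (SE 0.13, adjusted p = 0.154 with limma). The coactivators Maml1, Maml3, Snw1, Ep300 and Kat2b had log2 changes from -0.37 to 0.17. The corepressors Ncor1, Hdac1, Ctbp1 and Tle1 had changes from -0.06 to 0.37. The regular density arrays of Maml1 and Maml3 differed by 1.23 and 1.13 on the log2 scale, more than the changes of these genes.

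Among regulators of receptor turnover, 1 of 4 tested genes rose and 1 fell. Numb, an adaptor that draws Notch receptors into endocytosis and so inhibits the pathway, had log2 intensities of 8.88 and 8.63 at regular density and 9.77 and 9.86 at high density. Its log2 change was 1.07 (SE 0.12, adjusted p = 0.00184 with limma), and it was 0.94 to 1.19 with each array left out. A second, dimmer Numb probe, above background on 2 of 4 arrays, went the other way, with 5.59 and 5.06 at regular density and 3.98 and 5.09 at high density, so the rise of Numb rests on 1 probe. Dtx2, a Deltex ubiquitin ligase that binds Notch, had a log2 change of -0.33 (SE 0.10, adjusted p = 0.0473 with limma), a call that ended in 11 of 18 alternatives, among them any 1 array left out (-0.38 to -0.27), quantile scaling (-0.30) and no scaling (-0.22). Dtx3 and Dtx4 had log2 changes of -0.41 and 0.19 and did not pass.

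The Hes and Hey relatives beyond the members gave 2 tested genes of 7, which changed in opposite directions. Hes7, a repressor of the somite clock, had log2 intensities of 10.48 and 10.24 at regular density and 11.42 and 11.17 at high density. Its log2 change was 0.94 (SE 0.13, adjusted p = 0.00440 with limma). The only probe matched to Hes7 was brighter than that of any tested member on all 4 arrays, and whether it reads Hes7 alone was not tested. Hes6, a relative that opposes Hes1, had log2 intensities of 10.38 and 10.15 at regular density and 9.43 and 9.32 at high density. Its log2 change was -0.89 (SE 0.11, adjusted p = 0.00322 with limma), so its groups were separated in the direction opposite to Hes1. Hes2, Hes3, Hes5 and Heyl lay under background on all 4 arrays, and Hey2 above it on 1.

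Of 7 other tested genes reported as Notch targets in various tissues, 3 rose and 0 fell, beside 13.0% and 17.9% of all tested features. Acta2 and Myh11, among the 3, are also on the smooth muscle and pericyte marker list, where 6 of 8 tested genes rose. Snai2, a transcription factor of cell migration, had log2 intensities of 9.69 and 9.51 at regular density and 10.63 and 10.53 at high density, a change of 0.98 (SE 0.11, adjusted p = 0.00169 with limma). The smooth muscle genes Acta2 and Myh11, which many other pathways also control, had log2 changes of 3.06 (SE 0.10) and 5.18 (SE 0.09), and both rose (adjusted p = 4.7e-05 and 5.3e-06 with limma). Pdgfrb, the growth factor receptor of pericytes, had a log2 change of -0.20 (adjusted p = 0.175). Ccnd1 and Myc, which drive division downstream of Notch in T cells, had changes of -0.01 and -0.06, and Ptcra, a T cell target, one of 0.44, and none of these 3 passed the test.

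**Figure D4:**
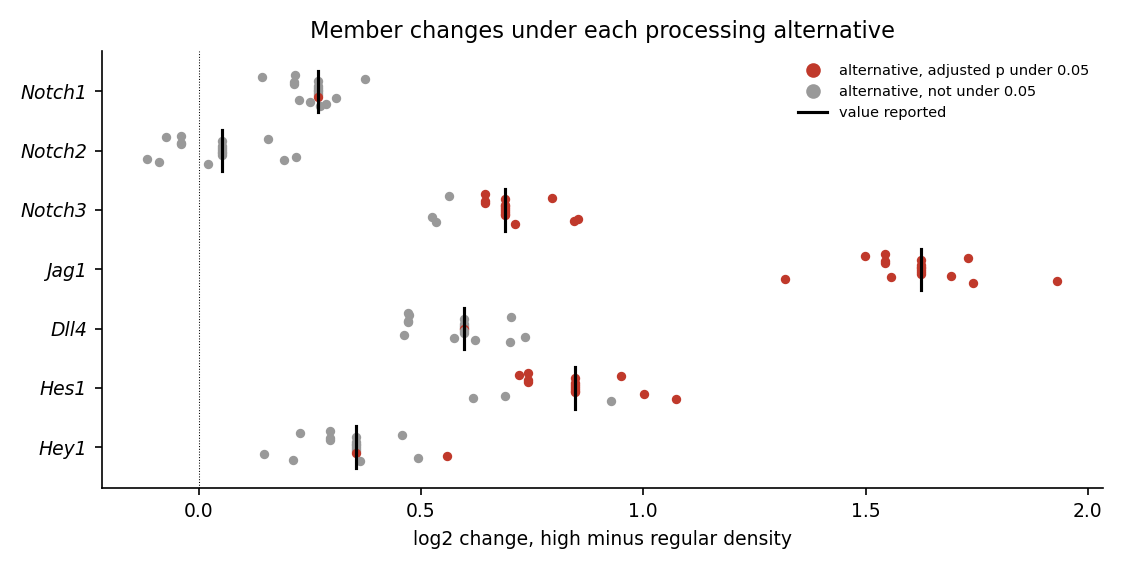
Log2 change of the 7 tested members under each processing alternative (points, red where the adjusted p was under 0.05) and as reported (black bars). Jag1 stays red throughout, while Notch3 and Hes1 each have 3 grey points.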

How the data were processed

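RNA of 4 samples, 2 per group, was measured on Agilent one-colour arrays. The deposited spot table holds intensity after all steps of the scanner software, per the file headers, and the submitters' processing notes name Agilent Feature Extraction 11.0.1.1. The authors also deposited normalized log2 values for 21473 probes, and the series matrix repeats them. How they normalized these values, and by what rule 8894 probes were dropped, is not stated in those sources.

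From the spot table, 1377 control spots of 44254 were left out and log2 intensities of repeated spots averaged. The 75th percentile of each array was subtracted and the mean of these percentiles added back. The brightest probe stood for a gene. Of 30367 probes, 8783 stayed unnamed after matching Entrez IDs and accessions to RefSeq. The comparison used limma 3.58.1 under R 4.3.3, two-sided, with 2 residual degrees of freedom and moderated variances that follow intensity (4.43 prior degrees of freedom). Tables and plots used Python 3.11.15, pandas 2.3.3 and matplotlib 3.10.9. Named are all members, every other pathway gene that passed the test, the 3 genes nearest to each member that passed, and cell type markers. Pathway genes that did not pass and are named serve to describe their role group. A few list genes count in their groups but are not reported here by name. Members and lists were chosen with earlier results of these data known. Alternatives covered scaling, floor, the authors' values, filters, probes, variance models, the replicate number as a block, and each array dropped in turn, and subtraction of the negative controls was added after seeing the data. The number of arrays limits the precision.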

Additional observations from a re-analysis of the deposited data

How the results depend on the processing

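Over 18 alternatives, Jag1 was called higher in each of the 17 that tested it, with log2 changes from 1.32 to 1.93, and the number of members called lower was 0 in all 18. Notch3 ended as a call under median scaling (0.56), and ranged from 0.52 to 0.85 with each array left out. Hes1 ended with the negative control median subtracted (0.93), and ranged from 0.62 to 1.07 with each array left out. Notch2 was below 0 with quantile scaling (-0.040), median scaling (-0.074), the authors' values (-0.041) and the series matrix (-0.041). It ranged from -0.12 to 0.22 with each array left out. The series matrix repeats the authors' values, which lay close to quantile scaling (0.644 for Notch3 in each). These settings are therefore not separate alternatives, although each is counted among the 18. Hey1 ranged from 0.15 to 0.56 with each array left out, and Dll4 (0.60) was called without a variance trend. The stricter filter on dim probes removed Jag1 and Hes1, among others, and left 3 members. Of these 1, Notch3, was called, as in the reported fit.

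The design text describes 2 separate experiments, but the labels do not say that a replicate number marks one experiment. Same-numbered arrays deviated together (r = 0.37 across features). Their negative control medians before scaling were 13.4 and 10.5 on the arrays numbered 1 and 1.93 and 1.99 on those numbered 2. With the replicate block, 5 members were called higher, adding Notch1 (0.27, adjusted p = 0.0357) and Hey1 (0.35, adjusted p = 0.0122), beside 2882 features higher and 4137 lower and 12 other pathway genes lower. Other pathway genes called lower numbered 4 as reported, 7 under median scaling, 2 without scaling and 2 to 5 with each array left out, of which 2 without regular density replicate 1. Features called lower were 578 without scaling. With each array left out, features called higher ran from 1178 to 1895 and lower from 1262 to 2233, the lowest of both without high density replicate 1. Genes near background, such as Dll4 at 1.20 times background, are limited by signal. The causes of these changes were not tested.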

Other observations

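The named genes nearest to each called member, by the Euclidean distance between log2 intensities centred on their own mean over the 4 arrays, are given as a description of these arrays. The nearest genes to Jag1 were Id4, an inhibitor of DNA binding by other factors, at a distance of 0.0775, Spc25, of the kinetochore, at 0.117, and Spag5, of the mitotic spindle, at 0.130. Hes1 was nearest to Ezh2, the histone methyltransferase of the Polycomb complex, at 0.0531, then to the olfactory receptor gene Or51e1 at 0.0652 and to Eva1a, a lysosomal regulator of autophagy, at 0.0768. Notch3 lay nearest to Ccdc171 at 0.0486, Gle1l1 at 0.0490 and Sprr1b, a protein of the cornified envelope, at 0.0514. Like changes follow from this choice of genes. The regular density means of Id4, Spc25, Ezh2 and Or51e1 lay under the limit of 5.62 for testing, so these were tested only through their high density values. With 4 arrays, many of 13676 features share a profile, and no shared control is read from these distances.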
